A study of Mus musculus with 8 samples.

Results

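RNA from 7 genes of MHC class II antigen presentation was followed through 8 poly(A) RNA-seq libraries of immortalized mouse embryonic fibroblasts. The genes were the class II chains H2-Aa, H2-Ab1 and H2-Eb1, the peptide-loading chains H2-DMa and H2-DMb1, the invariant chain gene Cd74 and the class II transactivator gene Ciita, 7 of 25215 entries in the count table. They were chosen by measured values of these same libraries, in which H2-Aa was read only with DS3201, together with known partners of H2-Aa. Their changes with DS3201 are therefore described here without a test. All groups share a background labelled 6KO, cells that have lost Ring1b, which encodes a ubiquitin ligase of PRC1, and the genes of the H3K9 methyltransferases Ehmt1, Ehmt2, Setdb1, Suv39h1 and Suv39h2. The combined group carried an shRNA against Ring1a and received 1 uM DS3201, which inhibits the H3K27 methyltransferases EZH1 and EZH2, over 7 days. The inhibitor group carried a control shRNA and received the same DS3201. The knockdown group carried the Ring1a shRNA without DS3201, and the control group the control shRNA without DS3201. Each group had 2 libraries, 1 with the prefix 20 and 1 with the prefix 28 in the table, called set 20 and set 28. The labels describe no separate cell clones, so the spread between the libraries of a group may be technical.

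MHC class II molecules are pairs of an alpha and a beta chain that carry peptides from endosomes to the surface of antigen-presenting cells, where CD4+ T cells read them. The invariant chain CD74 holds the empty groove until endosomal proteases remove it, and the H2-DM heterodimer then exchanges the remaining fragment for peptide. Transcription of the chains depends on X and Y boxes in the proximal promoter, bound by RFX, CREB and NF-Y, and on CIITA, which these factors recruit. Fibroblasts express the genes weakly unless interferon gamma induces CIITA. EZH2 is known to act on the class II genes and on CIITA in several tumour cell types.

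The proximal promoters are shown because they hold the boxes that the class II genes share. Windows of 300 bases, from 250 before to 50 after the gene start, were available from RefSeq (GRCm38.p6) for 4 of the 7 genes, as 5 entries. Each promoter below is written 5′ to 3′ on the strand of its gene. Capitals mark the letters GNAAC (the X1 core), TGANG (the X2 core) and ATTGG (the Y box core) where they follow each other in this order.
H2-Aa promoter, chr17:34287774-34288073, minus strand: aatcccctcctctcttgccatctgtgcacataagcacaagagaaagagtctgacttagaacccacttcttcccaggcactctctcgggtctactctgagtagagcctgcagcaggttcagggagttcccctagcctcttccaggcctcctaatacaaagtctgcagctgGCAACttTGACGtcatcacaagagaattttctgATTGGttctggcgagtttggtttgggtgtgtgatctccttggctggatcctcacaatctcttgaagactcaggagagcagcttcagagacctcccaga
H2-Eb1 promoter, chr17:34305617-34305916, plus strand: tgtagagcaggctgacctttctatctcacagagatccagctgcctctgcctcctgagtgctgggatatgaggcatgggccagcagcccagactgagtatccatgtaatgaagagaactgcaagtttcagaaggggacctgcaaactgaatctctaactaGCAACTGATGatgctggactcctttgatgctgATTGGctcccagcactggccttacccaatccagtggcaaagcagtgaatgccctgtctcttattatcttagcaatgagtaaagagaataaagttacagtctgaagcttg
H2-DMb1 promoter, chr17:34152941-34153240, plus strand: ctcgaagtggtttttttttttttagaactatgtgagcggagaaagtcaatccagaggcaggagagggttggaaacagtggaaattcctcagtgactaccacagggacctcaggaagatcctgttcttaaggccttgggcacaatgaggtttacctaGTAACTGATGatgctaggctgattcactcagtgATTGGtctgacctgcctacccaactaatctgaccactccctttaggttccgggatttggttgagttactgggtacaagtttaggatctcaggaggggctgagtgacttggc
In H2-Aa the X1 core began 81 bases before the gene start, with 2 bases to the X2 core and 21 from there to the Y box core. In H2-Eb1 it began 91 bases before the start and in H2-DMb1 94 bases before it. Between the X cores lay 0 bases in each, with 22 and 23 bases to the Y box core. The gene starts here are those of RefSeq, which for H2-DMb1 and H2-DMa lie inside the GENCODE positions given below. Searched on either strand, GNAAC was in 84.8% of 32851 promoter windows of the same length, TGANG in 89.4% and ATTGG in 37.4%. The ordered arrangement, with at most 3 bases between the X cores and 10 to 30 bases to the Y box core, was in 39 windows (0.119%). Its spacing was set after these promoters were seen. Neither H2-DMa window held the arrangement, and the first of them held no ATTGG. That first window (chr17:34122582-34122881) also covers the GENCODE start of Brd2 on the opposite strand, at 34122634. The second was chr17:34125268-34125567, and no other start of H2-DMa, annotated as far as 34139101, was searched. A match of letters is a description and shows no binding.

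Total counts per library ran from 12738585 to 23688253, so that 3 counts, the floor for a gene at 0, came to 0.122 to 0.265 CPM (counts scaled to a common TMM-normalised library size). Floors and counting intervals cover counting error only. The inhibitor library of set 28 had the lowest total and stood apart on the third principal component (-52.8, with the other libraries from -26.7 to 30.4), and values by set or without it are given for genes whose values moved with it. Ring1, the gene symbol of Ring1a, was at 3.52 and 2.04 CPM in the combined group, against 20.4 and 7.51 CPM in the inhibitor group, and at 4.51 and 1.41 CPM in the knockdown group, against 20.2 and 9.73 CPM in the control group (set 20 and set 28 in this order, as in all pairs of values here). In bulk RNA, a change in the share of cells that express a gene and a change in RNA per cell cannot be told apart.

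The 3 class II chain genes were read in every library with DS3201, while the libraries without it held 2 counts of them in all. H2-Aa, the alpha chain of I-A (chromosome 17, 34282744 to 34287823, GRCm38), had 169 and 248 counts in the combined group and 123 and 98 in the inhibitor group, against 0 in all 4 libraries without DS3201. These counts correspond to 10.6 and 15.8 CPM in the combined group and 6.97 and 8.65 CPM in the inhibitor group. H2-Aa thus reached at least 174 times the knockdown level in the combined group and at least 91.4 times the control level in the inhibitor group, with 3 counts over the whole lower group as the floor. H2-Ab1, the beta chain of I-A (chromosome 17, 34257689 to 34269419), had 38 and 26 counts in the combined group and 30 and 12 in the inhibitor group, also against 0 in all 4 libraries without DS3201. Its level was 2.39 and 1.66 CPM in the combined group and 1.70 and 1.06 CPM in the inhibitor group, at least 26.7 times the knockdown and at least 17.4 times the control level. H2-Eb1, the beta chain of I-E (chromosome 17, 34305867 to 34316674), was at 2.83 and 2.11 CPM in the combined group, against 0 counts in the knockdown group, which makes it at least 32.5 times higher. In the inhibitor group it was at 3.29 and 0.972 CPM, against 0 and 0.134 CPM (0 and 2 counts) in the control group, 42.8 times higher (95% counting interval 11.4 to 360). For these 3 genes no library with DS3201 overlapped with any library without it.

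**Figure D1:**
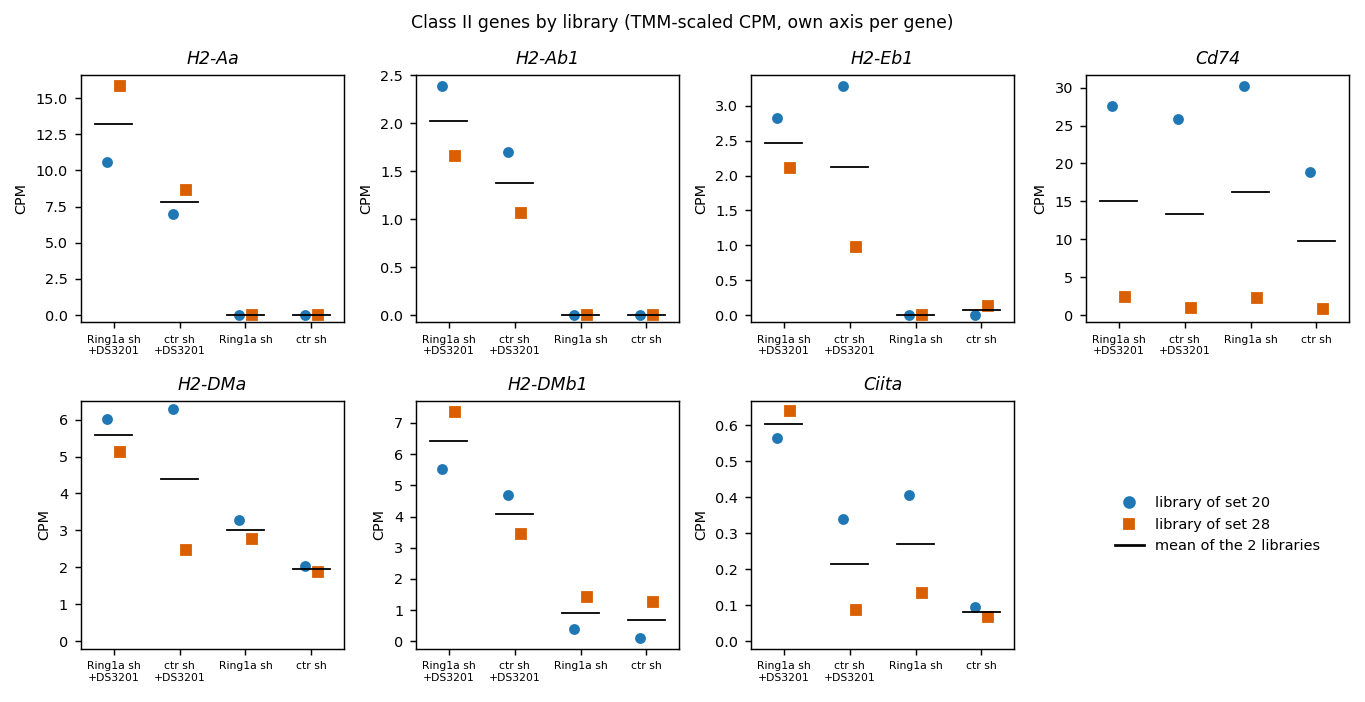
Level of each class II gene in CPM (vertical axis, own scale per gene) in the 4 groups (horizontal axis). Points are libraries, circles for set 20 and squares for set 28, and lines are the means of the 2 libraries. H2-Aa, H2-Ab1, H2-Eb1 and H2-DMb1 lie higher in all 4 libraries with DS3201, and Cd74 separates by set.

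Per kb of annotated exon, the chains were not equal to each other in RNA. H2-Ab1 per kb was 0.333 and 0.155 of H2-Aa in the combined group and 0.361 and 0.181 of it in the inhibitor group. All 4 counting intervals of this ratio lay under 1, the highest bound being 0.541. H2-Eb1 per kb was 0.520 and 0.260 of H2-Aa in the combined group and 0.921 and 0.219 of it in the inhibitor group, where the interval of set 20 (0.662 to 1.27) included 1. The ratios use the GENCODE M21 exon lengths, since the sources used here do not name the gene models behind the counts.

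Of the other class II genes looked up, H2-Ea-ps, the I-E alpha chain that is a pseudogene in the reference strain, was at 0 counts in all 8 libraries. H2-Eb2, a beta chain gene next to H2-Eb1, was at 0 counts in the 4 libraries without DS3201, and had 7 and 9 counts in the combined group and 16 and 6 in the inhibitor group. H2-Oa, a chain of the H2-O inhibitor of H2-DM, had 14 and 1 counts in the combined group and 5 and 1 in the inhibitor group, against 4 and 0 in the knockdown and 1 and 0 in the control group. Its partner H2-Ob had at most 1 count in any library, and H2-DMb2 at most 3. None of these low genes passed the low-count filter, and none was tested.

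The H2-DM genes, which were read without DS3201 as well, differed in how far they moved. H2-DMb1, the H2-DM beta chain (chromosome 17, 34153072 to 34160230), was at 5.53 and 7.35 CPM in the combined group and 0.406 and 1.41 CPM in the knockdown group. In the inhibitor group it was at 4.70 and 3.44 CPM, against 0.095 and 1.27 CPM in the control group. Its fitted log2 fold change was 2.84 ± 1.08 (SE) with the Ring1a shRNA and 2.60 ± 1.09 with the control shRNA. In set 20 the log2 difference between inhibitor and control was 4.50, and in set 28 it was 1.36, because the control library of set 28 held 19 counts and that of set 20 held 2. H2-DMb1 has a near-identical neighbour, H2-DMb2, whose counts were between 0 and 3 in every library, and reads shared by the copies cannot be assigned with certainty.

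H2-DMa, the H2-DM alpha chain (chromosome 17, 34119541 to 34139101), was at 6.03 and 5.11 CPM in the combined group, against 3.29 and 2.76 CPM in the knockdown group. It was at 6.29 and 2.47 CPM in the inhibitor group, against 2.04 and 1.88 CPM in the control group. The fitted log2 fold changes were 0.88 ± 0.50 with the Ring1a shRNA and 1.16 ± 0.51 with the control shRNA. With the control shRNA the difference was 1.57 in set 20 and 0.38 in set 28. The inhibitor library of set 28 lay under both knockdown libraries, so the 4 libraries with DS3201 did not stand clear of the 4 without it. The H2-DMa annotation overlaps Brd2, a bromodomain gene on the opposite strand, at 569 and 1071 CPM in the combined group, against 329 and 389 CPM in the knockdown group. The sources used here do not say whether counting used strand, so reads of the overlap cannot be told apart. Per kb, H2-DMb1 was 1.88 and 2.95 times H2-DMa in the combined group and 1.53 and 2.86 times in the inhibitor group, against 0.253 and 1.05 times in the knockdown and 0.0954 and 1.39 times in the control group.

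Cd74, which encodes the invariant chain (chromosome 18, 60803848 to 60812652), did not follow the chains. It was at 27.6 and 2.43 CPM in the combined group, against 30.3 and 2.22 CPM in the knockdown group. In the inhibitor group it was at 25.9 and 0.883 CPM, against 18.9 and 0.738 CPM in the control group. The groups overlapped in each of these comparisons. The within-set log2 differences with DS3201 were -0.13 and 0.12 with the Ring1a shRNA and 0.45 and 0.23 with the control shRNA. Cd74 instead differed by set, with set 20 above set 28 by 11.4 times in the combined group, 29.3 times in the inhibitor group, 13.6 times in the knockdown group and 25.6 times in the control group. The lowest bound of these 4 counting intervals was 8.14. The fit without the set as a term counts this gap as spread, which gives the log2 fold changes of Cd74 a standard error of 1.98 and 1.99, and with the set as a block it was 0.36 in each. H2-Aa, in contrast, was higher in set 28 than in set 20 in the combined group. Set 20 over set 28 was 0.670 there (counting interval 0.548 to 0.818). In the inhibitor group this ratio was 0.805, and its interval (0.612 to 1.06) included 1. Per kb, Cd74 was 5.88 and 8.40 times H2-Aa in the set 20 libraries of the combined and inhibitor groups, and 0.347 and 0.231 times H2-Aa in those of set 28.

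Ciita, the transactivator gene (chromosome 16, 10480059 to 10528418), was near the floor of the libraries throughout. It had 9 and 10 counts in the combined group, 6 and 1 in the inhibitor group, 10 and 2 in the knockdown group and 2 and 1 in the control group, and did not pass the low-count filter. The combined group was at 0.565 and 0.639 CPM, against 0.406 and 0.135 CPM in the knockdown group, which is 1.98 times higher (counting interval 0.912 to 4.47). The inhibitor group was at 0.340 and 0.0883 CPM, against 0.0950 and 0.0671 CPM in the control group, 2.89 times higher (0.661 to 17.3). Each interval included 1, so a difference in Ciita with DS3201 was not detectable at this depth. In the control libraries, where H2-Aa and H2-Ab1 had 0 counts, the 2 and 1 counts of Ciita were fewer than the 3 used as the floor. The Ciita annotation overlaps Dexi, a gene on the opposite strand. The sources used here do not say whether counting used strand, so reads of this overlap cannot be told apart either.

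Read together, 6 of the 7 genes passed the low-count filter, and for 4 of them (H2-Aa, H2-Ab1, H2-Eb1 and H2-DMb1) all libraries with DS3201 lay above all libraries without it. Of all tested entries 12.3% did so. With DS3201 and the control shRNA, edgeR called 1 of the 6 higher, where 0.726% of entries were called higher and 0% lower. With the set as replicate block it called 3 (H2-Aa, H2-Ab1 and H2-Eb1), where 6.62% were higher and 0.706% lower. With DS3201 and the Ring1a shRNA it called 1 without the block, where 0.602% were higher and 0% lower, and the same 3 genes with the block, where 6.05% were higher and 0.824% lower. Since these contrasts chose the genes, nothing is read from these counts. The call of H2-Aa without the block was lost in each fit that left out 1 library of any group with DS3201 or of the group compared with it.

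**Figure D2:**
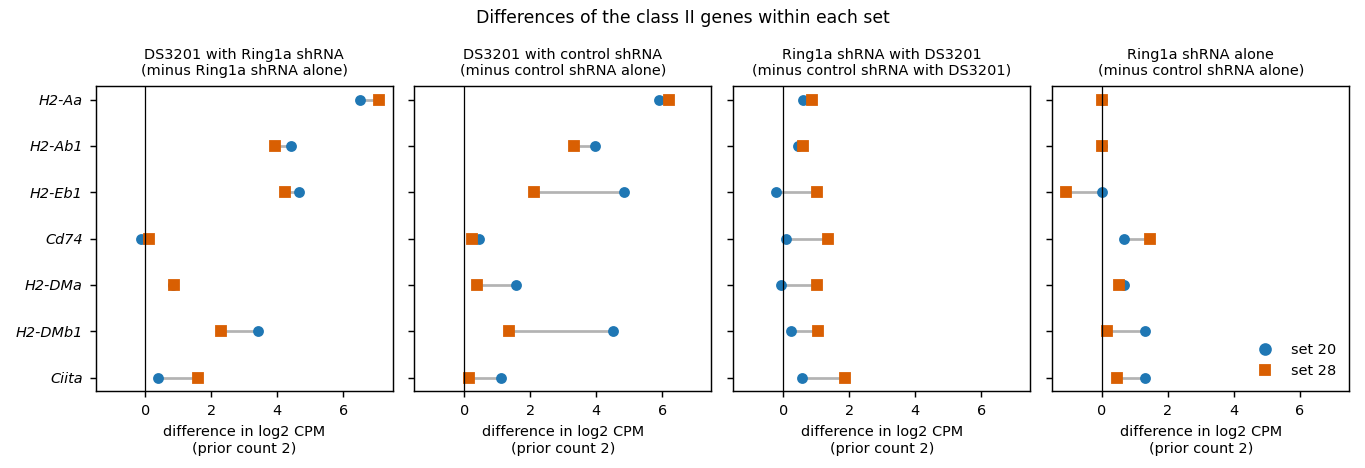
Differences in log2 CPM (horizontal axis, prior count 2) of each class II gene (rows) within set 20 (circles) and set 28 (squares), for DS3201 with either shRNA and for the Ring1a shRNA with and without DS3201. H2-Aa differs by 6.51 and 7.08 under DS3201 with the Ring1a shRNA, and Cd74 by -0.13 and 0.12. Differences from libraries at 0 counts depend on the prior count and understate the change.

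The comparisons of Ring1a shRNA with control shRNA, which lower the remaining PRC1 ligase, use the same libraries. The genes were not chosen on a difference in them, but choosing H2-Aa as read only with DS3201 fixed its 0 counts without it. With DS3201 present, H2-Aa was higher in the combined than in the inhibitor group in both sets, by 0.60 and 0.86 on the log2 scale, and the groups did not overlap. The fitted log2 fold change was 0.76 ± 0.42 (SE) and did not pass (edgeR adjusted p = 1.00, and 0.594 with the replicate block). H2-Ab1 was at 0.54 ± 0.66, H2-DMb1 at 0.66 ± 1.00, H2-DMa at 0.34 ± 0.50, H2-Eb1 at 0.20 ± 0.98 and Cd74 at 0.16 ± 1.99, and none of them passed (adjusted p = 1.00 for each). Without the inhibitor library of set 28 the log2 fold change was -0.38 for H2-Eb1, -0.14 for H2-DMa and -0.76 for Cd74, so the direction of these 3 turned without that library, and H2-Ab1 was at 0.28 without it. For Cd74 it also turned without the combined library of set 20 (-2.45). The fits with 1 library left out held no term for the set, so their values also carry the difference between the sets. For Cd74, set 20 was above set 28 by 11.4 times in the combined and 29.3 times in the inhibitor group. With all libraries and the block its log2 fold change was 0.55 ± 0.36. Of the 6 tested genes, 2 (H2-Aa and H2-DMb1) lay higher in both combined libraries than in both inhibitor libraries, as did 12.4% of all entries. Ciita had 19 counts in the combined and 7 in the inhibitor group, a ratio of 2.49 (1.003 to 7.01). By set these were 9 against 6 counts in set 20 and 10 against 1 in set 28. Without DS3201, Ciita had 12 counts in the knockdown and 3 in the control group, a ratio of 3.64 (0.983 to 20.1).

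Without DS3201, H2-Aa and H2-Ab1 were at 0 counts in the knockdown as in the control group, and no fold change can be given. For H2-Aa the choice of the genes had fixed this, so nothing is read from it. In 1 of the 6 tested genes, H2-DMa, both knockdown libraries lay above both control libraries, as in 12.2% of all entries. H2-Aa, H2-Ab1 and H2-Eb1 could not do so, having 0 counts in both knockdown libraries. The log2 fold change of H2-DMa was 0.62 ± 0.51 and did not pass (edgeR adjusted p = 1). Cd74 was higher in the knockdown than in the control library by 0.67 in set 20 and 1.45 in set 28 on the log2 scale, and did not pass with or without the block (edgeR adjusted p = 1). With 1 library left out, the fitted value of Cd74 ran from -2.18 (without the knockdown library of set 20) to 4.47 (without the control library of set 20). That of H2-DMb1 ran from -0.70 (without the knockdown library of set 28) to 3.13 (without the control library of set 28). These fits held no term for the set, so their values also carry the difference between the sets. For Cd74, set 20 was above set 28 by 13.6 times in the knockdown and 25.6 times in the control group. With all libraries and the block its log2 fold change was 0.97 ± 0.35. H2-Eb1 had 0 counts in both knockdown libraries, against 0 and 2 counts in the control group, too few for a fold change. Among the 6 genes 0 were called for the Ring1a shRNA with or without DS3201. Without DS3201, H2-Aa and H2-Ab1 could not be called at 0 counts, so nothing is read from this for them. Of all entries 0 (0%) were called in either direction by edgeR with or without the block. At an unadjusted p under 0.05, edgeR had 103 entries higher and 52 lower without DS3201, and 124 higher and 148 lower with it. DESeq2 called 0 higher and 1 lower in each. The interaction, the test of whether the effect of DS3201 differs between the shRNAs, also called 0 entries in edgeR and DESeq2, with 9 higher and 14 lower at an unadjusted p under 0.05 in edgeR. Its log2 estimate was -0.57 ± 2.81 for Cd74, -0.28 ± 0.71 for H2-DMa and 0.24 ± 1.49 for H2-DMb1 (edgeR adjusted p = 1 for each). No interaction value is given for H2-Aa, H2-Ab1 and H2-Eb1, which held 0 to 2 counts per library without DS3201, so that a fitted value would depend on the prior count.

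Transcription factors of the class II promoters included genes such as Rfx5 and Nfya that were read in every library. Rfx5, an RFX subunit, was at 9.73 and 4.86 CPM in the combined group, 11.8 and 5.92 CPM in the inhibitor group, 11.6 and 9.36 CPM in the knockdown group and 11.2 and 6.51 CPM in the control group. Nfya, an NF-Y subunit, was at 125 and 210 CPM in the combined group, 120 and 213 CPM in the inhibitor group, 94.3 and 145 CPM in the knockdown group and 98.2 and 164 CPM in the control group. Of 18 tested factors of 20 listed, edgeR called 0 in either comparison with DS3201 without the block. With the block, Irf8 and Zbtb18 rose with the control shRNA, and Irf8 rose while Kat2b fell with the Ring1a shRNA. With the Ring1a shRNA 5.56% of the 18 were higher and 11.1% lower, beside 6.05% and 0.824% of all entries, and with the control shRNA 11.1% were higher and 0% lower, beside 6.62% and 0.706%. Irf8, a factor of myeloid and B cells, was at 2.26 and 1.60 CPM in the combined group, against 0.0406 and 0 CPM in the knockdown group (adjusted p = 0.0119 with the block). It was at 0.963 and 0.530 CPM in the inhibitor group, against 0 and 0.0671 CPM in the control group (adjusted p = 0.0453 with the block). Zbtb18, a zinc finger repressor, rose by 1.04 ± 0.20 log2 with the control shRNA (adjusted p = 0.0270 with the block). Kat2b, an acetyltransferase that acts on CIITA, fell by 0.66 on the log2 scale (SE 0.14) with the Ring1a shRNA (adjusted p = 0.0346 with the block). The list median was 0.05 with the Ring1a shRNA and 0.04 with the control shRNA, beside 0.01 and 0.07 over all tested entries.

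Interferon gamma itself was at 0 or 1 count per library (Ifng). Its receptor genes Ifngr1 and Ifngr2 were read in every library, at 34.3 and 32.0 CPM and at 34.5 and 40.1 CPM in the combined group. Of 21 tested genes of 22 listed for this pathway, edgeR called 0 without the block. With the block it called 1 higher and 0 lower with the control shRNA, and 0 higher and 1 lower with the Ring1a shRNA. Of all entries, 6.62% were higher with the control shRNA and 0.824% lower with the Ring1a shRNA in the fit with the block. With it, the chemokine gene Cxcl9 rose by 2.60 ± 0.59 log2 with the control shRNA (adjusted p = 0.0463), at 3.29 and 0.707 CPM in the inhibitor group, against 0.523 and 0.134 CPM in the control group. Irf1, an interferon-induced factor that acts on Ciita, was at 68.5 and 35.9 CPM in the combined group, 79.0 and 23.1 CPM in the inhibitor group, 125 and 67.6 CPM in the knockdown group and 98.9 and 44.8 CPM in the control group, and did not pass. The list median was -0.26 with the Ring1a shRNA and -0.14 with the control shRNA.

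Genes of antigen processing and co-stimulation divided into a small number that rose with the block and a majority that did not pass. Of 18 tested genes of 22 listed, edgeR called 0 without the block and 4 higher with it, the same 4 in both comparisons with DS3201. Of all entries, 6.05% were called higher with the Ring1a shRNA and 6.62% with the control shRNA in the fit with the block. Ctsh, an endosomal cathepsin, was at 8.92 and 5.30 CPM in the combined group, against 0.244 and 0.0673 CPM in the knockdown group, and at 8.55 and 2.38 CPM in the inhibitor group, against 0.143 and 0.0671 CPM in the control group (adjusted p = 0.00212 and 0.00274 with the block). Cd40, a co-stimulatory receptor of antigen-presenting cells, was at 7.97 and 2.49 CPM in the combined group, against 0.203 and 0.0673 CPM in the knockdown group, and at 3.85 and 1.41 CPM in the inhibitor group, against 0.238 and 0 CPM in the control group (adjusted p = 0.00454 and 0.00968). Icosl, the ligand of the T cell receptor ICOS, was at 11.6 and 4.34 CPM in the combined group, against 0.894 and 0.0673 CPM in the knockdown group, and at 6.68 and 1.501 CPM in the inhibitor group, against 0 counts in the control group (adjusted p = 0.0101 and 0.00724). Cxcr4, a chemokine receptor that can pair with CD74, was at 0.816 and 2.04 CPM in the combined group, against 0.0406 and 0 CPM in the knockdown group, and at 0.510 and 1.32 CPM in the inhibitor group, against 0 counts in the control group (adjusted p = 0.0260 and 0.0325). Cathepsin S, the protease that trims the invariant chain in antigen-presenting cells, was not among them. Its gene Ctss had 0 counts in all 4 libraries with DS3201 and at most 1 count in the others, while Ctsl, which does this in thymic epithelium, was at 533 and 416 CPM in the combined group and 505 and 344 CPM in the control group.

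Over all 55 tested genes of the pathway lists, edgeR called 0 without the block, with 5 higher and 2 lower at an unadjusted p under 0.05 for DS3201 with the Ring1a shRNA and 7 higher and 0 lower for DS3201 with the control shRNA. DESeq2 called 4 higher and 0 lower in each comparison. With the block 5 were higher and 2 lower with the Ring1a shRNA (9.09% and 3.64% of the 55) and 7 higher and 0 lower with the control shRNA (12.7% and 0%), beside the shares of all entries given above. The lists were drawn up with results of these libraries known.

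**Figure D3:**
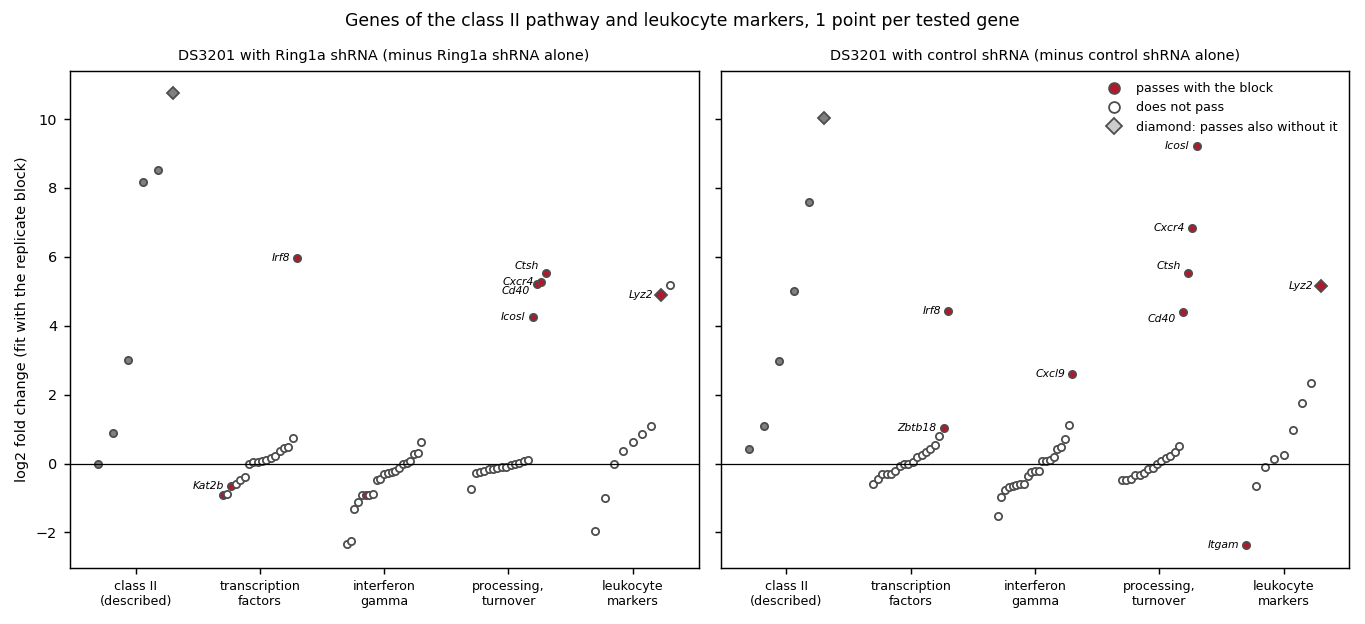
Log2 fold changes (vertical axis, fit with the replicate block) of tested genes in 5 lists (horizontal axis), 1 point per gene, for DS3201 with the Ring1a shRNA and with the control shRNA. Filled red points passed with the block, those named in the text are labelled, and diamonds passed without it too, and the class II genes in grey are shown as a description. Most pathway genes lie near 0, and Ctsh, Cd40, Icosl, Cxcr4 and Irf8 lie above it in both panels. Heights of genes at 0 counts without DS3201, such as Icosl and Cxcr4 with the control shRNA, depend on the prior count.

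On chromosome 17, the table held 29 other entries within 300 kb of H2-Aa, of which 4 are members of the set and 25 are not. Of those 25, 12 passed the low-count filter. The 12 include Ring1, the target of the shRNA, which did not pass in any comparison after adjustment. EdgeR called 0 of the 12 without the block, and with it 1, Brd2, in the comparison with the Ring1a shRNA (1.12 ± 0.26 log2, adjusted p = 0.0499), the gene that overlaps H2-DMa. This is 8.33% of the 12, beside 6.05% of all entries called higher in that comparison. The immunoproteasome and peptide transporter genes that lie between H2-DMb1 and H2-Ab1 were expressed throughout. Psmb8 was at 15.1 and 8.88 CPM in the combined group, against 28.03 and 28.9 CPM in the knockdown group, and Tap1 at 72.0 and 39.8 CPM, against 75.8 and 53.9 CPM. Psmb9 was at 11.5 and 6.84 CPM in the combined group, against 7.27 and 7.20 CPM in the knockdown group, and at 15.6 and 2.92 CPM in the inhibitor group, against 3.61 and 3.69 CPM in the control group. None of these 3 passed. Notch4, a Notch receptor gene at the far end of the window, had 53 and 72 counts in the combined group, against 23 and 6 in the knockdown group, and 71 and 18 counts in the inhibitor group, against 8 and 10 in the control group, and did not pass either. The 12 had a median log2 fold change of -0.16 with the Ring1a shRNA and -0.11 with the control shRNA. The 13 neighbours under the filter include butyrophilin-like genes and the class II genes H2-Oa, H2-Ob, H2-DMb2, H2-Eb2 and H2-Ea-ps. They summed to 76 counts in the combined and 53 in the inhibitor group, against 13 in the knockdown and 4 in the control group. Of these counts, H2-Eb2 held 16 in the combined and 22 in the inhibitor group, and H2-Oa 15 and 6. Such a sum was not made for other genes under the filter. Of the 24 non-member neighbours with any count, 7 (29.2%) had 0 counts in all libraries without DS3201 and at least 1 count with it. Of all genes with any count 12.8% did so. A count of 1 in 1 library is enough for this. With counts asked in all 4 libraries with DS3201, there were 4 of the 24 (16.7%), against 2.85% of all genes. Among the 7 were the class II genes H2-Eb2, which had the most counts of the 7, and H2-Ob.

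**Figure D4:**
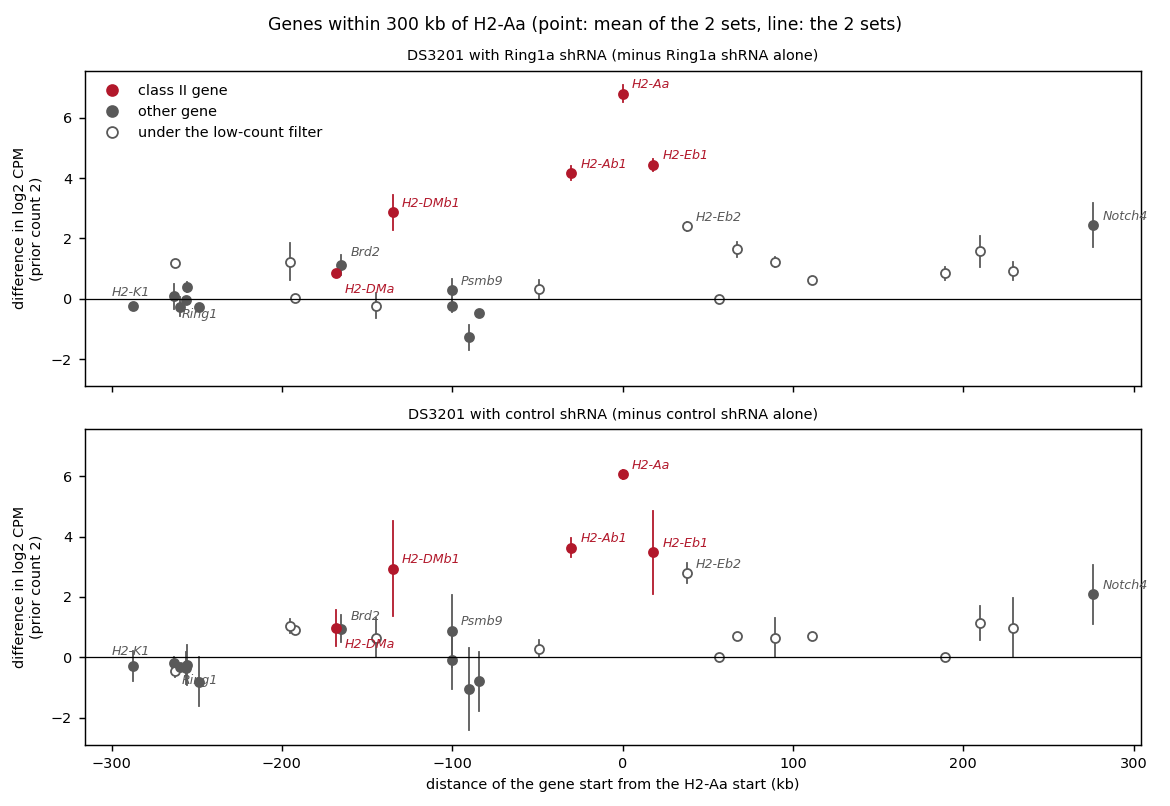
Difference in log2 CPM with DS3201 (vertical axis, prior count 2) against the distance of each gene start from the start of H2-Aa in kb (horizontal axis), for DS3201 with the Ring1a shRNA (upper panel) and with the control shRNA (lower panel). Points are means of the 2 sets, lines join the sets, red marks class II genes and open points genes under the low-count filter. The highest points are H2-Aa, H2-Ab1 and H2-Eb1, and the filled grey points between H2-DMb1 and H2-Ab1 all lie below them.

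Markers of leukocytes, which express class II genes constitutively, were read at low levels in all groups. The summed level of 23 markers of 24 listed was 30.5 and 25.6 CPM in the combined group, 25.1 and 22.0 CPM in the inhibitor group, 25.8 and 16.1 CPM in the knockdown group and 23.2 and 15.2 CPM in the control group. Of 9 tested markers 1 was called higher in both comparisons with DS3201. It was Lyz2, a lysozyme of macrophages (edgeR adjusted p = 0.0485 with the Ring1a shRNA and 0.0478 with the control shRNA). Without the block, 0.602% and 0.726% of all entries were called higher in these comparisons. Itgam, an integrin of myeloid cells, fell with the block and the control shRNA (log2 fold change -2.37 ± 0.51, adjusted p = 0.0376), where 0.706% of all entries were lower. The 7 defining markers in the table summed to 3.64 and 2.56 CPM in the combined group, 3.00 and 7.07 CPM in the inhibitor group, 1.22 and 2.29 CPM in the knockdown group and 1.71 and 3.42 CPM in the control group. Ptprc, the pan-leukocyte phosphatase CD45, was at 1.38 and 1.34 CPM in the combined group, against 0.325 and 1.61 CPM in the knockdown group, and at 1.64 and 5.03 CPM in the inhibitor group, against 0.855 and 2.48 CPM in the control group, and did not pass. Coro1a, an actin regulator of leukocytes, was at 1.32 and 0.830 CPM in the combined group, against 0.0406 and 0 CPM in the knockdown group, and at 0.850 and 0.0883 CPM in the inhibitor group, against 0 and 0.201 CPM in the control group, and did not pass. Laptm5, Cd52 and Flt3 had 0 counts in all libraries without DS3201 and at most 6 counts in a library with it. Ms4a1, the B cell gene of CD20, had 8 and 3 counts in the combined group and 5 and 7 in the inhibitor group, against 0 in both knockdown libraries and 0 and 1 in the control group. The T cell gene Cd3e was at 0 in every library but the inhibitor library of set 28. Tyrobp, an adaptor of myeloid cells, had 0 counts in all 8 libraries. What part such cells could have in the class II counts was not tested. The fibroblast label fits the markers Col1a1 (3744 and 3904 CPM in the combined group, 6153 and 5547 CPM in the control group) and Vim, while Thy1 had at most 9 counts in any library and Lum was at 0 counts in the 4 libraries without DS3201.

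The genes with the most similar profile were found by the root mean square difference of log2 CPM over the 8 libraries, after centring each gene on its own mean. For H2-Aa they were Slc7a2, a transporter of cationic amino acids (0.22), D10Bwg1379e (0.37) and Pramef25 (0.40). Slc7a2 was at 10.6 and 10.6 CPM in the combined group and 5.04 and 7.77 CPM in the inhibitor group, against 0 counts in the libraries without DS3201. For H2-Ab1 they were Azgp1 (0.12), Myh6 (0.20) and Abcg1 (0.22), and for H2-Eb1 Mroh2b (0.30), Krba1 (0.32) and Cyp4f37 (0.35). For H2-DMa they were Tubb3 (0.13), Sox4 (0.18) and Angel1 (0.20), and for H2-DMb1 Nnmt (0.36), Hpse (0.36) and Cebpa (0.37). The gene nearest to Cd74 was Mir5107 (0.41), which the annotation places inside Cd74, followed by Igfbp6 (0.52) and Pak6 (0.52), which were also higher in set 20. No class II gene was among the 3 nearest of another. The profiles were centred but not scaled, so the measure also compares the size of a change. For genes at 0 counts without DS3201, this size follows the level with DS3201 and the prior count. H2-Aa was at 10.6 and 15.8 CPM in the combined group and H2-Ab1 at 2.39 and 1.66 CPM, which keeps them apart even where they rise together. Whether the class II genes share a pattern can therefore not be read from these ranks.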

How the data were processed

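Poly(A) RNA was sequenced from 8 libraries in 4 groups taken from the labels. The authors deposited raw counts per gene symbol and repeat subfamily (25215 entries), with reads trimmed by Trim Galore and aligned by TopHat2 on mm10, per the submitters' processing notes. For counter and annotation, nothing was found in the sources used here. A further 8 columns could be matched to no label and stayed out.

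In R 4.3.3, edgeR 4.0.16 removed low entries (filterByExpr, 15287 left), scaled by TMM and fitted 1 term per group to all libraries by robust quasi-likelihood, with two-sided F tests and Benjamini-Hochberg adjustment over all entries at 0.05. Log2 CPM used a prior count of 2. The replicate block adds the column prefix. The labels give each replicate number a batch but do not tie it to a prefix. The set 20 minus set 28 difference per gene had a correlation of 0.559 to 0.897 between any pair of groups, so the prefix was taken to pair the libraries. Intervals are exact binomial at 95%. Positions and exon lengths are from GENCODE M21, and promoters from RefSeq GRCm38.p6. The code was tested on simulated data.

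The members, gene lists and comparisons were chosen with earlier results of these data known. Named genes were all 7 members, pathway genes and neighbours that passed with or without the block (or, where none did, the one that moved most), and the 3 nearest profiles of each tested member, with predicted models left out. A listed gene that passed is not reported here by name, though counts and medians of its lists include it. Genes given as not passing were chosen for their role after their values were seen. Alternatives were other size factors, no filter, DESeq2 1.42.0, the block, only the libraries compared, each library left out, a prior count of 0.5 and, added after the data were seen, the block without the inhibitor library of set 28.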

Additional observations from a re-analysis of the deposited data

How the results depend on the processing

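Counts of calls depended on the fit. For DS3201 with the control shRNA, 111 entries were higher and 0 lower. The counts became 190 and 1 with no filter, 1012 and 108 with the replicate block, 731 and 53 with DESeq2, and 662 and 259 with the block when the set 28 inhibitor library was left out. With only the libraries compared 0 were higher, and with 1 library left out the number higher ran from 1 to 116. For DS3201 with the Ring1a shRNA, 92 entries were higher and 0 lower. The counts became 210 and 1 with no filter, 925 and 126 with the block, 649 and 31 with DESeq2, and 1251 and 844 with the block when the set 28 inhibitor library was left out. With only the libraries compared 2 were higher, and with 1 library left out from 1 to 100. The lowest count, 1, came without the control library of set 20 in the first comparison, and without the knockdown or the combined library of set 20 in the second.

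Of the pathway genes, 0 were called higher in either comparison, against 1 in each with no filter, 4 in each with DESeq2, 7 and 5 with the block (control and Ring1a shRNA), and 5 and 7 with the block when the set 28 inhibitor library was left out. The last fit called 1 and 8 of them lower, and the block alone 0 and 2. Of the class II genes, 1 was called higher in each. This became 3 in each with DESeq2 and with the block, 2 with the control shRNA and 4 with the Ring1a shRNA under the block without the inhibitor library of set 28, 2 with the Ring1a shRNA and no filter, 0 in each with only the libraries compared, and 0 to 1 with 1 library left out. DESeq2 called 1 entry lower for the Ring1a shRNA without and with DS3201. No other count of calls for the Ring1a shRNA or the interaction changed under any alternative run. Other size factors left every count within 1.5 times. The causes of these shifts were not tested.

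Signs of uncalled members turned where 1 library was left out, as for Cd74 in each of the 5 comparisons. Those fits held no term for the set, so their values also carry the difference between the sets, which was large for Cd74. With the Ring1a shRNA and DS3201, H2-DMb1 was at -0.18 with the block when the set 28 inhibitor library was left out. For genes at 0 counts, the prior count sets the size of the log2 difference: for H2-Aa with the control shRNA it was 5.91 and 6.22 with a prior of 2, and 7.89 and 8.21 with a prior of 0.5. Depth limits Ciita, H2-Eb2 and the other genes under the filter to descriptions.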

Other observations

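The ordered X1, X2 and Y box letters lay in promoter windows of 36 genes, 33 of them outside the 7 class II genes and 26 of those in the count table. H2-Eb2 and H2-Ob, which are class II genes too, were among them. The 16 that passed the low-count filter had a median log2 fold change of -0.07 for DS3201 with the Ring1a shRNA and -0.06 with the control shRNA, beside 0.01 and 0.07 over all tested entries. Genes under the filter are not in these medians. Of them, H2-Eb2, Rab39 and BC051142 had counts in every library with DS3201 and 0 in those without it. Asb16, Lce3f, Mmp7 and Scgb2b20 had 0 counts in every library.

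The fibroblast markers moved in both directions with DS3201. Their sum over 10 genes was 9948 and 10650 CPM in the combined group, against 18610 and 14510 CPM in the knockdown group, and 12230 and 8774 CPM in the inhibitor group, against 17360 and 14390 CPM in the control group. With the replicate block, Pdgfrb, a receptor for platelet-derived growth factor, fell in both comparisons (edgeR adjusted p = 0.00975 with the Ring1a shRNA and 0.0106 with the control shRNA). Pdgfra, the related receptor, rose in both (adjusted p = 0.0271 and 0.0139), as did Dcn, the proteoglycan decorin (adjusted p = 0.0146 and 0.0161).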
